A study of Mus musculus with 12 samples.

Results

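The genes described here carry the angiogenic signals of the vascular endothelial growth factor (VEGF) and angiopoietin systems. They were the ligands Vegfa, Vegfb, Vegfc, Pgf, Angpt1 and Angpt2 and the receptors Flt1, Kdr, Flt4 and Tek. Members were the listed genes, found through the transcript accession that the array design gives for each probe, whatever their signal. All 10 genes had a probe, out of 20144 genes that could be matched, and they were read by 12 of the 39429 probes.

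Dunn is a mouse osteosarcoma cell line of osteoblastic type with low metastatic potential, and LM8 is a metastatic subline obtained from it by selection in vivo. RNA of early and late cultures was hybridised to Agilent single-colour mouse arrays. Early Dunn cells were at passage 25 and late Dunn cells at passage 86, whereas early LM8 cells were at passage 24 and late LM8 cells at passage 91. Each of the 4 groups had 3 arrays, one for each independent culture. All cells grew untreated in the same serum-containing medium. The comparison of the lines is therefore that of 1 line with 1 subline. At a single passage, p-values measure the spread between cultures of these lines only. Each culture of a group lay on another slide, and this spread includes that between slides. With passages pooled, passage was not in the model, so that the spread also holds differences between early and late cultures. The arrays lay on 3 slides, each of which held 1 array of every group in the same order, so that the position on the slide and the group cannot be told apart.

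VEGF ligands are secreted dimers that bind receptor tyrosine kinases found mainly on endothelial cells. Vegfa acts through Flt1 and Kdr and drives the growth of blood vessels, Vegfb and Pgf bind Flt1, and Vegfc acts mainly through Flt4 on lymphatic vessels. Angpt1 activates the receptor Tek (also called TIE2) and stabilises vessels, while Angpt2 competes with it at the same receptor. In bone and in bone tumours, cells of the osteoblast lineage are among the sources of VEGF ligands, and the receptors are borne mostly by the vessels.

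Values are log2 processed signals relative to the 75th percentile of the array. This percentile was 287 to 603 intensity units on early Dunn arrays, 686 to 961 on late Dunn arrays, 893 to 1316 on early LM8 arrays and 1166 to 1903 on late LM8 arrays. The share of probes that the scanner software called well above background, the measure of detection used here, ran from 39.1% to 59.7% over the 12 arrays. The median over the dim probes, those not well above background, lay between -7.53 and -5.20 on early Dunn arrays and between -8.20 and -5.84 on late Dunn arrays. It lay between -8.52 and -7.99 on early LM8 arrays and between -9.10 and -8.42 on late LM8 arrays, below the Dunn arrays of the same passage in each case. The late Dunn array of replicate 1 stood apart. Its median over all probes was -3.21, against -5.43 to -4.43 on the other 11 arrays, and replicate arrays of late Dunn cells correlated with r from 0.919 to 0.986. Values without it are given where its omission changed a call or a median of all genes.

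The labelled cell type was checked against its markers. Of 10 osteoblast markers measured, 7 were well above background on all arrays, Runx2, Sp7, Ibsp and Col1a1 among them. The others, Alpl, Spp1 and Col1a2, had no value on some arrays after outlier spots were removed. They were well above background on every array with a value. Of 12 endothelial markers, Cdh5, Tie1, Emcn, Erg and Sox17 were well above background on no array, whereas Vwf and Eng were so on all. The summed linear signal of the endothelial list, in units of the 75th percentile, was 13.6 to 15.3 in early Dunn, 9.12 to 9.25 in late Dunn, 8.10 to 9.18 in early LM8 and 4.83 to 5.44 in late LM8 cells. Vwf, Egfl7 and Eng, the brightest markers in every group, made up nearly all of it, so that it does not describe the list as a whole. Egfl7 had a value on only 2 early Dunn arrays. RNA was measured in whole cultures, in which fewer cells of a type and less RNA per cell cannot be told apart.

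Of the 10 genes, each read by its brightest probe, Vegfa, Vegfb, Pgf and Kdr were well above background on all 12 arrays. For Kdr this held for 1 of its 2 probes only. Angpt2 was so on 11, Vegfc on 9 and Flt1 on 7 arrays. Angpt1 and Tek passed on 1 array each and Flt4 on none.

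**Figure D1:**
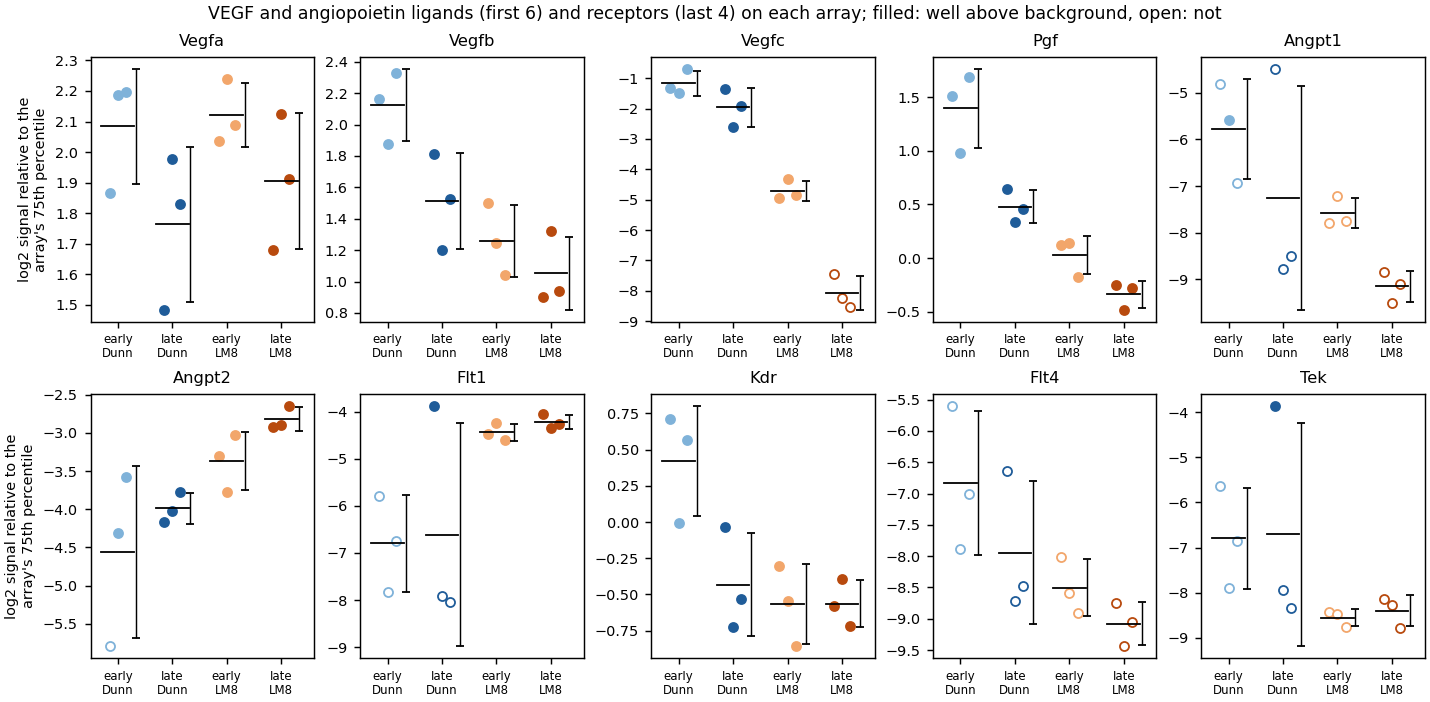
Each panel plots 1 gene, with the 12 arrays as points in their 4 groups and the log2 signal relative to the array's 75th percentile on the vertical axis, whose range differs between panels. Filled points were well above background and open points were not, horizontal bars are group means and whiskers are 1 SD (n = 3). Vegfc steps down from -1.17 in early Dunn to -8.07 in late LM8 cells, Pgf falls from 1.39 to -0.34, and Flt1 is well above background on all 6 LM8 arrays but on 1 Dunn array.

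The ligand Vegfc was the only one of the 10 genes whose difference between the lines was called at both passages, and it was 11.6-fold lower in early LM8 than in early Dunn cells. Late LM8 cells lost it further, to a signal that was not well above background. A gene was called when its adjusted p was under 0.05 in limma, with Benjamini-Hochberg adjustment over all probes. No member was called between late and early Dunn cells, where 1 of 20123 genes was called (0.00497%) and 1368 genes, Pgf among the members, had an unadjusted p under 0.05. Between late and early LM8 cells 2 of 10 members were called, against 2.82% of all genes. Between LM8 and Dunn cells, Vegfc alone was called at early passage, against 4.55% of all genes, and again at late passage, against 3.83%. With passages pooled, 4 members were called lower and 2 higher in LM8, against 37.9% and 5.71% of all genes, or 43.6% in either direction. With 6 of 10 against 43.6%, the share of members called was not far from the background, so that the pooled counts are no result about these genes as a set. That background itself ranged from 13% to 52.7% of genes when 1 array was left out, with 13% without late LM8 replicate 2, 13.7% without replicate 3 and 16.5% without replicate 1. The split of all genes moved with the scaling, from 1151 higher and 7639 lower to 1493 higher and 1498 lower when the percentile was taken over probes well above background. At early passage the same step moved it from 267 higher and 648 lower to 370 higher and 338 lower, and at late passage from 251 and 521 to 328 and 403. The members' median change was -0.88 against -0.66 for all genes. The difference between the lines in their passage change was called for no member, whereas 0.606% of all genes were called, and 1 member, Vegfc, had an unadjusted p under 0.05.

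The median change of all genes was -0.34 between late and early Dunn cells and -0.18 between late and early LM8 cells. It was -0.76 between the lines at early passage, -0.55 at late passage and -0.66 with passages pooled. Without late Dunn replicate 1 the median was -0.62 between Dunn passages, -0.36 between the lines at late passage and -0.62 with passages pooled. Changes are therefore also given relative to these medians.

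**Figure D2:**
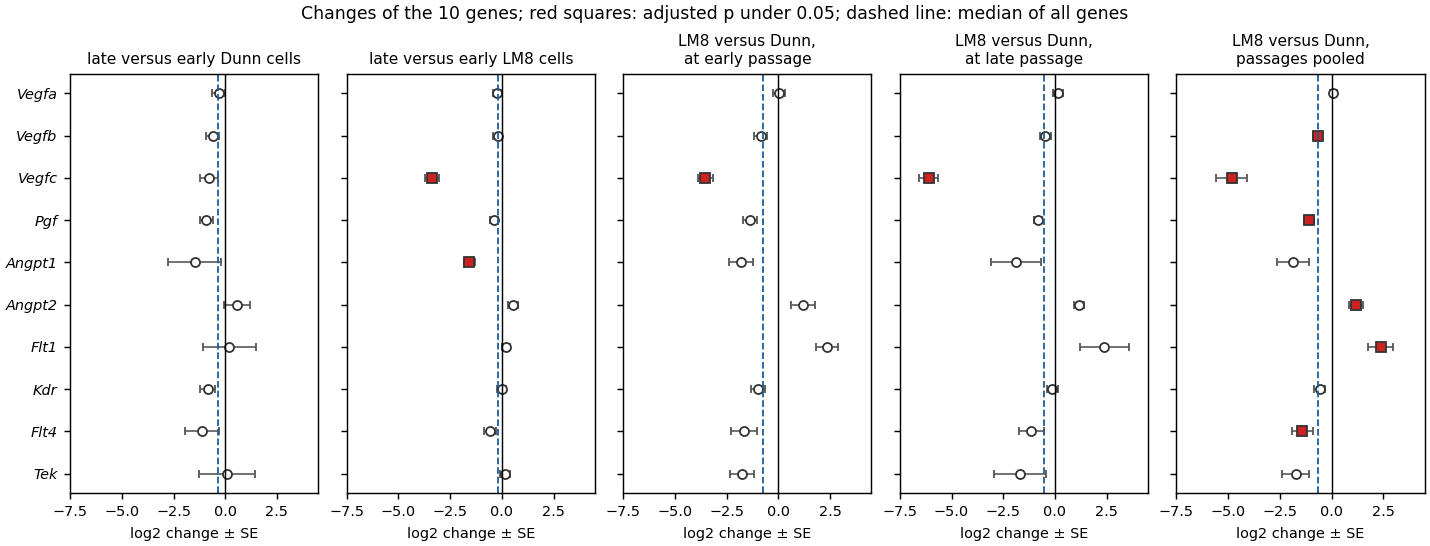
For the 10 genes (rows), each panel gives the log2 change in 1 comparison with its standard error. Red squares have an adjusted p under 0.05, open circles do not, and the dashed line is the median of all genes. Vegfc lies far to the left of the dashed line in 4 panels, from -3.36 to -6.11, while Angpt2 and Flt1 lie to its right in every panel.

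Vegfc binds Flt4 and is the main growth factor of lymphatic vessels. In early Dunn cells its signal was -1.32, -1.50 and -0.70 on the 3 arrays, and in late Dunn cells it was -1.34, -2.61 and -1.93. In early LM8 cells it was -4.94, -4.32 and -4.86, and in late LM8 cells -7.46, -8.23 and -8.53. The Dunn groups overlapped with each other, all LM8 arrays lay below all Dunn arrays, and late LM8 arrays lay below early ones.

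Between early LM8 and early Dunn cells, Vegfc differed by -3.54 ± 0.36 (SE; limma adjusted p = 0.0049). At late passage the difference was -6.11 ± 0.46 (limma adjusted p = 0.0040). Late LM8 cells had only a bound, which put Vegfc at least 29.7-fold lower than in late Dunn cells. Within the 3 slides this difference was -6.12, -5.61 and -6.60, and at early passage it was -3.63, -2.83 and -4.16. Both calls held under each of the 17 alternatives, leaving out any array included.

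In the passage comparison of LM8 cells, Vegfc fell by 3.36 ± 0.33 on the log2 scale (limma adjusted p = 0.0042), which the detection limit of the late arrays reduces to at least 4.41-fold lower. The fall was seen on all slides, at -2.52, -3.90 and -3.66. It was called under 15 of 17 alternatives. With normexp background correction of the raw signal it was -0.91 (limma adjusted p = 0.24), and the methods' t-test gave an adjusted p of 0.068. In Dunn cells the passage change was -0.79 ± 0.46 (limma adjusted p = 0.78), and 0.18 in the deposited table without scaling, where the median of all genes was 0.62. The difference between these passage changes was -2.57 ± 0.57 and was not called (limma adjusted p = 0.14). It was called when only probes well above background were tested (limma adjusted p = 0.038), and it was -0.02 after normexp correction.

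The order of Vegfc levels was early Dunn, late Dunn, early LM8 and late LM8 cells. The first pair of neighbours overlapped. Late Dunn and early LM8 arrays did not overlap, and this pair was not tested, since it differs in line and in passage.

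The promoter windows of Vegfc, Flt1 and Pgf are shown because these 3 genes had the largest changes between the lines among members well above background on every array of at least 1 group, together with Angpt2, for which no window was given. They run from 250 bases before to 50 bases after the start of transcription and come from RefSeq (GRCm38.p6), which held windows for 8 of the 10 members. Capitals mark matches on either strand to ACGTG and GCGTG, the cores of the hypoxia response element, to GGGCGG, the GC box, and to TATAAA, the TATA box. No pair of these motifs overlaps within the windows shown.
Vegfc, chr8:54077282-54077581, plus strand: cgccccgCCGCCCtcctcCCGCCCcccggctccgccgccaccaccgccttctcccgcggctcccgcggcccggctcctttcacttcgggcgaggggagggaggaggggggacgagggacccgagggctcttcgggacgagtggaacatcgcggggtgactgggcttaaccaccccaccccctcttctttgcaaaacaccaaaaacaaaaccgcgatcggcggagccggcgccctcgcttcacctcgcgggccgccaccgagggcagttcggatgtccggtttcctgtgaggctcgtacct
Flt1, chr5:147725962-147726261, minus strand: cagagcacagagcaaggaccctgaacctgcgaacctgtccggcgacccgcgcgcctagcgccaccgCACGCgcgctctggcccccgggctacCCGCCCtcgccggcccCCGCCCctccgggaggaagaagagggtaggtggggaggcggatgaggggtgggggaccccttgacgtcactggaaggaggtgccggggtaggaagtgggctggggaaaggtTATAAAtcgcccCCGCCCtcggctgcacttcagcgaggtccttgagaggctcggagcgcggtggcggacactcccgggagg
Pgf, chr12:85177264-85177563, minus strand: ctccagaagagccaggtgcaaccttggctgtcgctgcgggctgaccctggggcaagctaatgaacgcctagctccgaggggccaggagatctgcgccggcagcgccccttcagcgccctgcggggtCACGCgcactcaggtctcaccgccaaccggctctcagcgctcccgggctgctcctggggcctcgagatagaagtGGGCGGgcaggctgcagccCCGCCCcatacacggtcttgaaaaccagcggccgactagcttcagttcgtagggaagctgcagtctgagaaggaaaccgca
The Vegfc window held 2 GC boxes and no match to the other motifs. That of Flt1 held 3 GC boxes, 1 GCGTG core at position -184 and 1 TATA box at position -31, counted from the start of transcription. That of Pgf held 2 GC boxes and 1 GCGTG core at position -124. A second Pgf window, chr12:85175933-85176232 on the minus strand, held none of these motifs and is not printed. Among 32851 windows of the same length, 35.7% held a GC box, 32.4% GCGTG, 19.6% ACGTG and 13.6% a TATA box. Such matches describe letters and do not show binding.

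Pgf, placental growth factor, is a ligand of Flt1. Its signal was 1.51, 0.98 and 1.69 in early Dunn cells, 0.64, 0.34 and 0.46 in late Dunn cells, 0.12, 0.14 and -0.17 in early LM8 cells, and -0.25, -0.48 and -0.28 in late LM8 cells. The 4 groups did not overlap with each other and kept the same order as for Vegfc. With passages pooled, Pgf was 2.13-fold lower in LM8 cells (-1.09 ± 0.26, limma adjusted p = 0.016), which is -0.43 relative to the median of all genes. Every slide showed it, at -1.14, -0.83 and -1.30. The call held under 21 of 22 alternatives and was lost in the deposited table without scaling, where Pgf was 0.075 and the median of all genes 0.50. At early passage the difference was -1.36 ± 0.33 (limma adjusted p = 0.075), or -1.57 without early Dunn replicate 2 (limma adjusted p = 0.011), and at late passage -0.82 ± 0.21 (limma adjusted p = 0.13). The passage change was -0.91 ± 0.33 in Dunn cells and -0.37 ± 0.19 in LM8 cells, and neither was called. Pgf and Vegfc were the only members whose 6 LM8 and 6 Dunn arrays did not overlap, against 16.1% of all genes.

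Vegfb, which also binds Flt1 and is known for its part in heart and muscle, followed the bulk of genes. Its mean was 2.12 ± 0.23 (SD, n = 3) in early Dunn, 1.51 ± 0.31 in late Dunn, 1.26 ± 0.23 in early LM8 and 1.05 ± 0.23 in late LM8 cells. Early Dunn arrays lay above all others, and the remaining groups overlapped with their neighbours. The pooled difference of -0.66 ± 0.22 was called (limma adjusted p = 0.035) but equalled the median of all genes, and the call held in 11 of 22 alternatives. It was lost without early Dunn replicate 1 or 3, late Dunn replicate 1, early LM8 replicate 2 or 3, or any late LM8 array (limma adjusted p from 0.0501 to 0.071).

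Vegfa, the principal factor of blood vessel growth and a target of hypoxia-inducible transcription, did not show a called difference with the probe used. Its signal was 1.87, 2.19 and 2.20 in early Dunn, 1.48, 1.98 and 1.83 in late Dunn, 2.04, 2.24 and 2.09 in early LM8 and 1.68, 2.12 and 1.91 in late LM8 cells. All groups overlapped with at least 1 other group. Between the lines the change was 0.04 ± 0.29 at early and 0.14 ± 0.25 at late passage, which is 0.79 and 0.69 above the median of all genes. The other Vegfa probe went another way. Its mean was 2.56 ± 0.66 (SD, n = 3) in early Dunn, 1.70 ± 0.10 in late Dunn, 1.60 ± 0.08 in early LM8 and 1.14 ± 0.16 in late LM8 cells. Its pooled difference was -0.76 ± 0.29 (limma adjusted p = 0.0495), which is only -0.10 relative to the median of all genes. The probes carry accessions of different Vegfa transcripts, and the part of this in their disagreement was not tested. No single direction can be given for this gene. In the deposited table without scaling, the probe used was 1.26 higher in LM8 cells with passages pooled (limma adjusted p = 0.019). There the median of all genes was 0.50 and 24.8% of all genes were called.

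**Figure D3:**
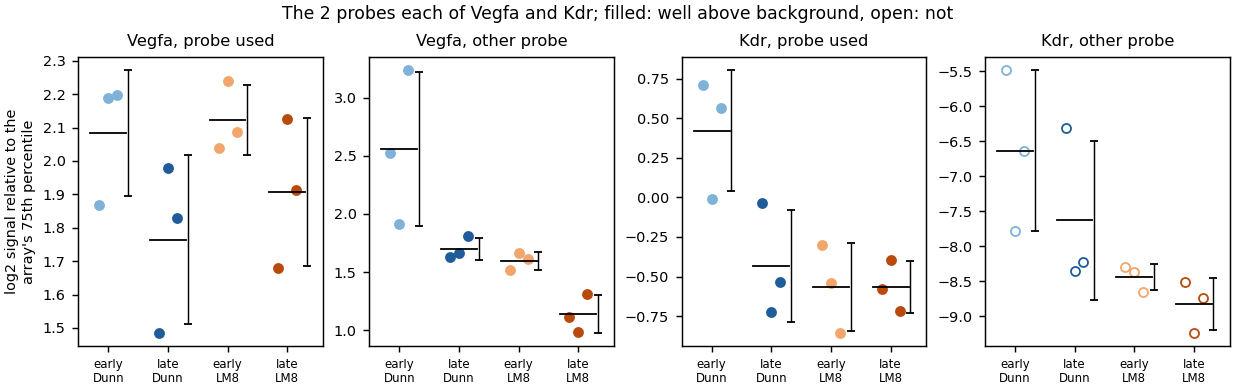
The panels plot the probe used and the other probe of Vegfa and of Kdr, with points, bars and whiskers as in the plot of the 10 genes by array. For Vegfa, the probe used keeps group means between 1.76 and 2.12 whereas the other probe goes from 2.56 to 1.14. For Kdr, the other probe is not well above background on any array.

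Angpt2, which is stored and released by endothelial cells and competes with Angpt1, had higher group means in LM8 than in Dunn cells, unlike Vegfb, Vegfc and Pgf. Its signal was -5.79, -4.31 and -3.57 in early Dunn cells and -4.17, -4.02 and -3.77 in late Dunn cells. It was -3.31, -3.78 and -3.03 in early LM8 cells and -2.92, -2.90 and -2.64 in late LM8 cells. The early Dunn array of replicate 1 was not well above background and was the lowest of all, while every late LM8 array exceeded every other array. Group means rose in the order early Dunn, late Dunn, early LM8 and late LM8, and each neighbouring pair but the last overlapped.

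With passages pooled, Angpt2 was 2.26-fold higher in LM8 cells (1.18 ± 0.35, limma adjusted p = 0.030), or 1.84 above the median of all genes. The slides gave 1.87, 0.83 and 0.84. The call held in 16 of 22 alternatives. It was lost without early LM8 replicate 3 (limma adjusted p = 0.053), late LM8 replicate 1 (0.052), late LM8 replicate 2 (0.068) and late LM8 replicate 3 (0.061). It was also lost under quantile normalization (1.85, limma adjusted p = 0.11), and after normexp correction the value was -0.15, where the median of all genes was -0.89. At late passage the difference was 1.17 ± 0.23 (limma adjusted p = 0.069), with 1.25, 1.12 and 1.13 on the 3 slides. Without late Dunn replicate 1 it was 1.08 and called (limma adjusted p = 0.043). The difference was at early passage 1.19 ± 0.60 (limma adjusted p = 0.17). Passage changes were 0.57 ± 0.62 in Dunn and 0.55 ± 0.25 in LM8 cells and were not called.

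Angpt1, the agonist of Tek, was well above background on the early Dunn array of replicate 2 only. Its mean was -5.77 in early Dunn, -7.25 in late Dunn, -7.58 in early LM8 and -9.15 in late LM8 cells. Late LM8 cells were called lower than early ones (-1.57 ± 0.27, limma adjusted p = 0.037), but no array of either group was well above background, so that no fold is given. The call was lost whenever any of these 6 arrays was left out (limma adjusted p from 0.063 to 0.15). The pooled difference between the lines was -1.85 ± 0.77 (limma adjusted p = 0.066) and was called without late Dunn replicate 2 (limma adjusted p = 0.020) or replicate 3 (0.030).

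The receptor Flt1, a high-affinity receptor of Vegfa, Vegfb and Pgf, was found in LM8 cells. Its signal was -4.47, -4.24 and -4.61 on early LM8 arrays and -4.04, -4.35 and -4.27 on late LM8 arrays, all well above background. On early Dunn arrays it was -5.79, -7.84 and -6.76, none of them well above background. On late Dunn arrays it was -3.87, -7.92 and -8.04, and only the array of replicate 1 was well above background and exceeded every LM8 array. On that array the lowest signal counted as well above background was -4.38, against -6.44 and -6.16 on its replicates. Of the 12 endothelial markers, 5 were well above background there, against 4 and 3 on its replicates, and their median was -4.41, against -8.03 and -7.56. The part of these shifts in the Flt1 result was not tested.

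With passages pooled, Flt1 was 2.37 ± 0.62 higher in LM8 cells (limma adjusted p = 0.022), 3.03 above the median of all genes. On the slides the difference was 0.58, 3.58 and 2.96. It remained called without any single array, and held in 20 of 22 alternatives. When dim signals were set to the lowest signal well above background, it was 0.77 (limma adjusted p = 0.16). After normexp correction of the raw signal it was -0.57 (limma adjusted p = 0.24), with the median of all genes at -0.89. The direction was thus not the same in all settings, and why it moved was not tested. At early passage Flt1 differed by 2.36 ± 0.54 (limma adjusted p = 0.066), and the bound set by the Dunn arrays was at least 1.20-fold higher in LM8. It was called without early Dunn replicate 1 (2.86, limma adjusted p = 0.015) and without replicate 2 (1.84, limma adjusted p = 0.013). At late passage the difference was 2.39 ± 1.19 (limma adjusted p = 0.28), and without late Dunn replicate 1 it was 3.76 (limma adjusted p = 0.00034). The passage changes were 0.19 ± 1.28 in Dunn and 0.22 ± 0.20 in LM8 cells and were not called. LM8 groups overlapped, as did the Dunn groups.

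Kdr, the main signalling receptor of Vegfa on endothelial cells, was well above background on all arrays with the probe used. Its signal was 0.71, -0.01 and 0.56 in early Dunn, -0.04, -0.72 and -0.53 in late Dunn, -0.30, -0.54 and -0.86 in early LM8 and -0.58, -0.39 and -0.72 in late LM8 cells. Early Dunn arrays lay above all others, and the other groups overlapped. No comparison was called for this probe in the main setting. At early passage it was called with the floor on dim signals (limma adjusted p = 0.049), without dim probes (0.046) and with array weights (0.00046). The difference at early passage was -0.99 ± 0.34 (limma adjusted p = 0.078), and -0.23 relative to the median of all genes. Without early Dunn replicate 2 it was -1.21 (limma adjusted p = 0.031), and the pooled difference of -0.56 became -0.71 without late Dunn replicate 2 (limma adjusted p = 0.033). The other Kdr probe stands for the same transcript and lay in 10 spots on each array. It was not well above background on any array, at -9.24 to -5.48. Whether these cells express Kdr is therefore not settled by the probes.

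Flt4, the receptor of Vegfc, was not well above background on any array, from -9.44 to -5.60. Its pooled call, lower in LM8 cells (limma adjusted p = 0.039), therefore compares signals at background and was lost in 13 of 21 alternatives, among them the omission of early Dunn replicate 1 or 3, late Dunn replicate 1, early LM8 replicate 2 or 3 and any late LM8 array. Tek, the receptor of both angiopoietins, was well above background only on the late Dunn array of replicate 1, at -3.85, and ranged from -8.79 to -5.65 on the other 11 arrays. Its pooled difference was -1.72 ± 0.66 (limma adjusted p = 0.0501), and it was called without early Dunn replicate 2 (limma adjusted p = 0.040), late Dunn replicate 2 (0.031) or late Dunn replicate 3 (0.026). Without late Dunn replicate 1, the array on which Tek was well above background, it was -1.15 and not called, and at late passage it was -0.27 in place of -1.69. At early passage, leaving out early Dunn replicate 2 gave a call for Flt4 (limma adjusted p = 0.017) and for Tek (0.011). The means of Flt4 and Tek were lower in both LM8 groups than in the Dunn groups of the same passage, as was the median over dim probes. Their part in these differences was not tested. Flt1 went the other way.

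The groups of a comparison failed to overlap for 3 members between late and early Dunn cells (20.6% of all genes) and for 4 between late and early LM8 cells (24.7%). Between the lines this held for 8 members at early passage (54.9%) and for 5 at late passage (52.7%). At the study's own threshold, over 2-fold with an unadjusted p under 0.05, no member passed between Dunn passages (4.86% of all genes). Vegfc and Angpt1 passed between LM8 passages (7.29%). Between the lines 6 members passed at early passage (36.7%), of which Flt1 was the one higher in LM8, and Vegfc and Angpt2 passed at late passage (13.3%).

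Genes with a pattern most like that of Vegfc and Flt1, the members with the widest range of group means, were sought among 11290 genes well above background in at least 1 group. Over the 12 arrays, which share line, passage and slide, the Vegfc signal had a Pearson r of 0.993 with Lgals3bp, 0.992 with Phactr2 and 0.990 with Gper1. Phactr2, like Vegfc, was well above background on no late LM8 array. Lgals3bp, a secreted glycoprotein that binds galectin-3, went from 4.59 in early Dunn and 3.99 in late Dunn to 1.09 in early LM8 and -2.16 in late LM8 cells. For Flt1 the genes were Ccdc166, with r of 0.990, Abhd6, with 0.984, and Lefty1, with 0.983. All 3 were well above background on the 6 LM8 arrays, on no early Dunn array and on 1 late Dunn array. They passed the detection filter through the LM8 groups alone and were then picked by their r with Flt1. This shared pattern follows from the choice and is no further result, and most of their Dunn signals lay at background. The genes named for Vegfc were likewise picked by their r with it, so that their pattern is no further result.

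Co-receptors and kin of these families were measured for 19 genes, among them the neuropilins, which present VEGF to its receptors, and the angiopoietin-like proteins. None was called between passages of either line. At early passage 3 were lower in LM8 cells, Hspg2 and Angptl4 among them, and at late passage 4 (Hspg2, Angptl4, Angpt4 and Itgb3). Hspg2, the heparan sulfate proteoglycan perlecan, was 5.12-fold lower at late passage, at 1.18 ± 0.13 (SD, n = 3) in LM8 against 3.54 ± 0.24 in Dunn cells. Angptl4, a secreted regulator of lipase and of vessel permeability, was 5.05-fold lower in LM8 at early and 2.90-fold lower at late passage. Angpt4, the third angiopoietin, differed by -1.40 ± 0.23 between late LM8 and late Dunn cells. With passages pooled 8 of 19 genes were lower and 1 higher, beside 37.9% and 5.71% of all genes, and the median of -0.67 lay beside -0.66 for all genes. This became 5 lower and 1 higher without late Dunn replicate 1. In that fit 3521 of 20142 genes were lower and 835 higher, or 21.6% called in place of 43.6%. The gene that was higher was Nrp1, the co-receptor of Vegfa, with a difference of 1.29 (limma adjusted p = 0.0014). Its mean was -3.63 ± 0.26 (SD, n = 3) in early Dunn, -3.31 ± 0.23 in late Dunn, -2.27 ± 0.32 in early LM8 and -2.09 ± 0.29 in late LM8 cells, well above background on 11 of the 12 arrays, and at single passages it was not called (limma adjusted p = 0.076 and 0.088). Nrp2, the co-receptor of Vegfc, had means from 5.39 to 5.59 in the 4 groups. Itgb3 was not well above background on all arrays of any group. Nrp1, Nrp2 and Itgb3 were named after their values were seen.

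Signal transducers downstream of these receptors were measured for 43 genes, 29 of them well above background on all arrays. None was called between Dunn passages, and Grb14, an adaptor that binds receptor kinases, was the 1 gene called between LM8 passages, at least 2.91-fold lower in late cells. Between the lines Plcg2, a phospholipase C that raises intracellular calcium, was lower in LM8 cells, with a change of -2.41 ± 0.32 at early and of -4.05 ± 0.31 at late passage. Ptk2, focal adhesion kinase, was 2.42-fold lower in LM8 at late passage. With passages pooled 13 of 43 were lower and 1, the adaptor Shb, higher, beside 37.9% and 5.71% of all genes, with a median of -0.45 against -0.66 for all genes. Without late Dunn replicate 1, 9 were lower with passages pooled, where 21.6% of all genes were then called in place of 43.6%. At late passage 6 in place of 2 were lower, where 9.7% of all genes were then called. Plcg1, the isoform that Kdr recruits, was among the lower ones, at -0.80 (limma adjusted p = 0.017), as was the adaptor Crk, at -1.29 ± 0.30. Shb and Plcg1 were named after their values were seen.

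Hypoxia-inducible genes that share their regulation with Vegfa were measured for 30 genes. None was called between Dunn passages, and only Lox was called between LM8 passages. The lactate exporter Slc16a3 was 27.1-fold higher in LM8 than in Dunn cells at early passage (4.76 ± 0.32, limma adjusted p = 0.0011) and 62.3-fold higher at late passage (5.96 ± 0.26, limma adjusted p = 0.00093). Lox, a collagen cross-linking enzyme, was higher in LM8 by 1.76 ± 0.35 at early and 5.12 ± 0.42 at late passage. Its mean was -0.35 in early Dunn and -5.31 in late Dunn cells, where 1 of 3 arrays was well above background, and 1.41 in early LM8 and -0.19 in late LM8 cells. The passage change of Lox differed between the lines by 3.36 ± 0.53 (limma adjusted p = 0.031). Ndrg1, a stress-induced protein, was 2.95-fold lower in early LM8 than in early Dunn cells. With passages pooled 3 genes were higher (Slc16a3, Lox and the glucose transporter Slc2a3) and 10 of 30 lower, beside 5.71% and 37.9% of all genes, with a median of -0.35 against -0.66 for all genes. The counts were 2 and 7 without late Dunn replicate 1, where 21.6% of all genes were called in place of 43.6%. Lox was then 3.11 and no longer called (limma adjusted p = 0.055). At late passage that omission left the same 2 genes higher and added 2 lower ones, Ndrg1 and P4ha2, and between Dunn passages it added a fall of Lox. Slc2a3 and P4ha2, a collagen prolyl hydroxylase, were named after their values were seen. All genes of these 3 lists that were called at late passage remained called without late Dunn replicate 1.

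**Figure D4:**
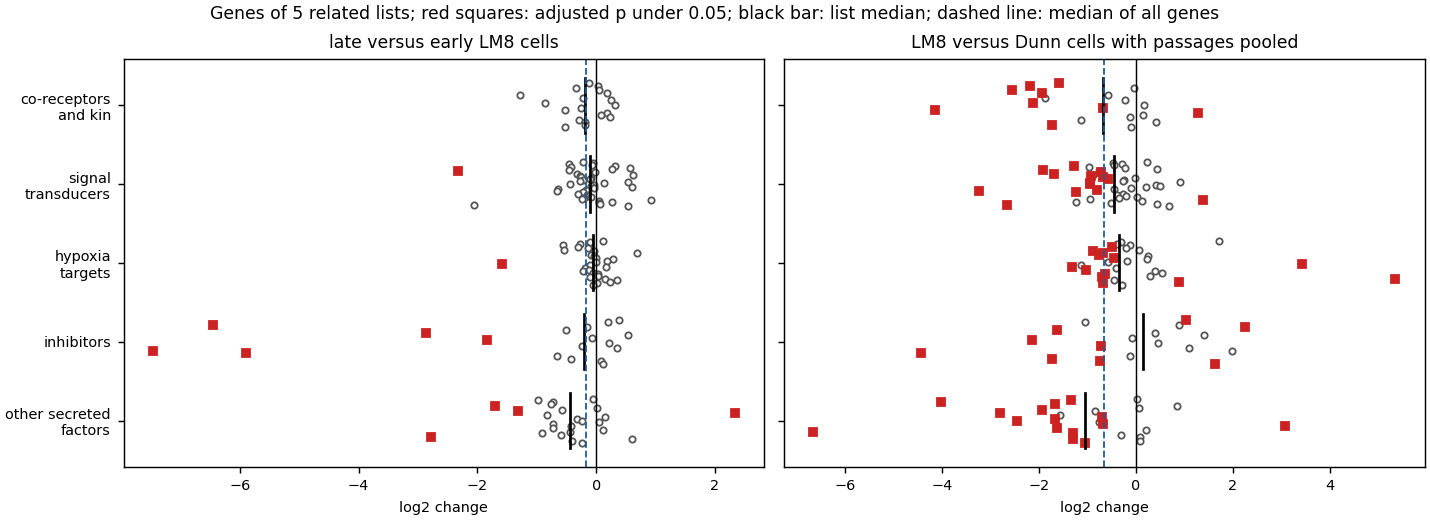
The log2 change of each gene (points) in the 5 related lists (rows) is shown for late versus early LM8 cells and for LM8 versus Dunn cells with passages pooled. Red squares have an adjusted p under 0.05, black bars are list medians and the dashed line is the median of all genes. The inhibitors hold 5 called genes in the left panel, from -7.47 to -1.83, and the other secreted factors are lower in LM8 cells for 14 genes in the right panel.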

How the data were processed

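RNA of 3 cultures for each of the 4 groups was measured on 12 single-colour arrays. The authors deposited the output of Agilent Feature Extraction (version 10.7.3), whose processed signal is an intensity after background subtraction by the scanner software. A second deposited file joined the 12 arrays and held the same intensity, rounded (within 0.497%) and unscaled. After removal of control spots and outlier spots, the remaining spots of each probe were averaged as log2 values, from which the array's 75th percentile was taken away. The deposited files name no genes. Accessions matched 26581 probes (67.4%) to 20144 genes of the RefSeq table of GRCm38.p6, which was used for names only, since the array design names another build. A gene was read by its probe with the highest mean signal. In counts of genes, a probe without a value on an array counted as not well above background there.

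Each comparison had a fit of its own groups by lmFit and eBayes (limma 3.58.1, R 4.3.3), and p-values were adjusted over all probes by Benjamini-Hochberg. With passages pooled, the arrays of both passages formed 1 group per line, without a term for passage. The difference in passage change between the lines came from a single model of the 12 arrays. A probe not well above background on any array of a group has a bound only, computed against the lowest signal well above background on each array. A fold given as at least N-fold is such a bound. The members and the gene lists were chosen with earlier results of these data known. All 10 members are named, and of each other list the 3 largest called changes over 2-fold without overlap and well above background in the higher group. Steps were tested on simulated data. Alternatives were quantile normalization, the percentile over probes well above background, normexp (offset 50), a floor under dim signals, the deposited table, removal of dim probes, the mean of a gene's probes, the replicate block, array weights, an ordinary t-test, 1 fit over all arrays and leaving out each array. Counts of the other lists without late Dunn replicate 1 were added after seeing the data. Normexp used the median spot signal. Replicate numbers mark the slide. Deviations of arrays on the same slide from their group means correlated with r from -0.230 to 0.683, over 0.1 in 12 of 18 pairs. The number of arrays limits the precision. Plots were drawn with matplotlib 3.10.9. Single values of some list genes are not reported here.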

Additional observations from a re-analysis of the deposited data

How the results depend on the processing

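Between late and early Dunn cells the count of members called was 0 and became 5 with array weights, which called 41.3% of all genes in place of 0.00497%. Between LM8 passages it was 2, with 2.82% of all genes called. It became 0 after normexp correction (1.49%) and with the methods' t-test (1.17%). It became 1 with the deposited table (1.61%), the floor on dim signals (3.78%), the filter on dim probes (6.76%) and the fit over all arrays (1.45%). With each array left out it was also 1 (1 to 1), where 1.46% to 2.89% of all genes were called. At early passage it was 1 between the lines. It became 6 with the floor (48.4% of all genes called in place of 4.55%), 5 with the filter (23.5%), 7 with array weights (76.3%), 3 with quantile normalization (2159 of 20130 genes) and the deposited table (9.89%), 2 with the mean of probes (6.56%) and the fit over all arrays (13.6%), and 1 to 6 without 1 array, 6 without early Dunn replicate 2 (42.7%) and 2 without early Dunn replicate 1 (4.99%). At late passage it was 1, with 3.83% of all genes called. It became 3 with quantile normalization (8.62%), the filter (22.2%), array weights (6.89%) and the t-test (6.84%). It became 2 with the other percentile (3.63%) and the mean of probes (5.44%). Without 1 array it was 1 to 3, and 3 without late Dunn replicate 1 (9.7% of all genes). With passages pooled it was 6, with 43.6% of all genes called. There, genes called went from 8790 to 4109 with quantile normalization and 2991 with the other percentile. Without 1 array the members called were 3 to 9. They were 3 without early LM8 replicate 3 (17.4% of all genes) or any late LM8 array (13% to 16.5%). They were 8 without late Dunn replicate 3 (48.2%) and 9 without late Dunn replicate 2 (52.7%). The difference in passage change gave 0 (0.606% of all genes called), and 1 with the filter (2.42%) or array weights (9.83%). Without 1 array it gave 0 to 0 (0.238% to 1.17%).

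The replicate block, which pairs arrays of 1 slide, gave 0 for the passages of Dunn cells (0% of all genes called) and 1 for those of LM8 cells (1.67%). Between the lines it gave 1 at early (1.25%), 1 at late passage (0.389%) and 7 pooled (49.8%). It gave 0 for the difference in passage change (0.502%). The pairing rests on the slide, and the pairs did not all correlate. Pooled values that reversed were Vegfb at 0.51 and Pgf at 0.075 in the deposited table, Flt1 at -0.57 and Angpt2 at -0.15 after normexp, and Flt4 at 0.024 after quantile normalization. Why these values moved was not tested. Vegfc kept its direction in all alternatives between the lines and between LM8 passages, but not between Dunn passages, where it did so in 16 of 17. The signals of Angpt1, Flt4, Tek and, in Dunn cells, Flt1 lay near background, which limits what can be said of them.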

Other observations

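Secreted and matrix-bound inhibitors of angiogenesis, were measured for 18 genes of 19 listed. None was called between Dunn passages. Between late and early LM8 cells 5 fell (Thbs2, Cnmd, Timp2, Cxcl10 and Serpinf1) and none rose, against 2.82% of all genes called. Thbs2, a thrombospondin that restrains endothelial growth, was at -0.58 ± 0.70 (SD, n = 3) in early LM8 cells and not well above background in late ones, at least 76.9-fold lower. Cnmd, the cartilage protein chondromodulin, was at least 19.9-fold lower in late LM8 cells. Timp2, an inhibitor of matrix metalloproteinases, fell by 5.90 ± 0.44 on the log2 scale (limma adjusted p = 0.0015), and its passage change differed between the lines by -5.14 ± 0.57 (limma adjusted p = 0.0044). Between the lines at early passage Thbs2, Cnmd and Col18a1, the source of endostatin, were higher in LM8, with Thbs2 at least 17.3-fold and Col18a1 7.83-fold, while Timp2 and Serpinf1 were lower. At late passage Timp2 was lower in LM8 cells (-7.01 ± 0.44) and Serpinf1, pigment epithelium-derived factor, was 7.19-fold lower, while Vash2, which unlike its relative Vash1 is known to promote vessel growth although it stands in this list, was 4.69-fold higher. With passages pooled 3 of 18 were higher and 6 lower, beside 5.71% and 37.9% of all genes, with a median of 0.16 against -0.66 for all genes. Leaving out late Dunn replicate 1 gave 2 higher and 2 lower, where 21.6% of all genes were called in place of 43.6%. At late passage that omission gave 2 higher in place of 1 and left 2 lower (9.7% of all genes called in place of 3.83%). Cxcl10 was named after its values were seen.

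Other secreted factors that promote vessel growth were measured for 25 genes. None was called between Dunn passages, and between LM8 passages 1 rose (Fgf1, at least 2.38-fold) and 3 fell (Ccn2, Ptn and Egfl7). Ptn, the heparin-binding factor pleiotrophin, fell by 2.78 ± 0.35 on the log2 scale, and its passage change differed between the lines by -5.07 ± 0.88 (limma adjusted p = 0.046). Ccn2, connective tissue growth factor, was 3.26-fold lower in late LM8 cells. Pdgfb, the platelet-derived growth factor that recruits pericytes, was 84.5-fold lower in LM8 than in Dunn cells at early passage (-6.40 ± 0.32, limma adjusted p = 0.00049) and 121-fold lower at late passage (-6.91 ± 0.25, limma adjusted p = 0.00063). Its arrays lay between 0.50 and 1.23 in Dunn cells and between -6.17 and -5.48 in LM8 cells, all well above background. Ccl2, a monocyte chemokine, was at least 11.1-fold lower in early LM8 than in early Dunn cells. The gelatinase Mmp2 was higher in LM8 cells by 3.22 ± 0.29 at early and 2.95 ± 0.22 at late passage. With passages pooled 14 of the 25 were lower and 1, Mmp2, higher, beside 37.9% and 5.71% of all genes, with a median of -1.05 against -0.66 for all genes. These counts were 9 and 1 without late Dunn replicate 1, where 21.6% of all genes were called in place of 43.6%. At late passage 8 in place of 6 were then lower (9.7% of all genes called in place of 3.83%). All genes of both lists that were called at late passage remained called without that array.

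Among 8 pericyte and smooth muscle markers, 1 was called between LM8 passages. At late passage 1 was lower in LM8 than in Dunn cells (3.83% of all genes called), and 3 without late Dunn replicate 1 (9.7%). Acta2, smooth muscle actin, was 16.2-fold lower in late than in early LM8 cells (limma adjusted p = 0.0048) and 47.3-fold lower in late LM8 than in late Dunn cells. Between LM8 passages Tagln was -0.06, Abcc9 0.24 and Des 0.79, and none of them was called. Haematopoietic markers were called for no gene at single passages and for 1 of 6 with passages pooled, beside 43.6% of all genes. Without late Dunn replicate 1 that count was 0, beside 21.6%. Of 12 endothelial markers 2 were called between LM8 passages, Eng (-1.54 ± 0.21) and Egfl7 (-1.32 ± 0.21), both lower in late cells. Cdh5 (0.26), Pecam1 (0.05) and Esam (0.93) had changes above 0 that were not called.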
